A study of Homo sapiens with 4 samples.

Results

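The genes described here are the well-expressed genes of HL-60 cells whose transcripts were most strongly lowered by all-trans retinoic acid (ATRA). HL-60 (ATCC CCL-240) is a human line from the peripheral blood of a patient with myeloid leukemia, and ATRA drives these cells towards neutrophil-like cells. The cells received 1 µM ATRA for 4 days or, as control, the ethanol in which ATRA was dissolved, with medium and compound renewed midway. Poly(A) RNA of 2 ATRA samples and 2 control samples was sequenced, all from this single line, and no label tells if both samples of one treatment came from different cultures. The deposited table holds 1648 genes, of which 1645 had an adjusted p-value under 0.01 in the authors' DESeq2 comparison. It is thus mostly a list of genes the authors called different. Shares and medians over it do not describe all expressed genes, and a gene that is not in it was not analysed here.

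Members were chosen by the authors' group means: a gene was taken when its control mean was at least 200 normalized reads and its ATRA mean below 0.25 of that. Of the 1648 genes, 138 met both limits. Leaving out solute carriers, GPR receptors, uncharacterised and antisense transcripts and 16 named genes removed 21 of them, so 117 genes remained. Below 0.25 of control lay 11.2% of all 1648 genes, and 11.5% of the 1195 genes with a control mean of at least 200. Because these 2 means chose the members, every difference between ATRA and control given for a member is a description without a test. With 2 samples against 2, an exact two-sided permutation test could not go below p = 0.33.

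Retinoic acid acts through nuclear receptors that bind DNA as pairs of a retinoic acid receptor and a retinoid X receptor, and in immature myeloid cells it halts division and starts the program of the mature granulocyte. Many genes of the list below belong to the amino acid response, in which uncharged transfer RNA activates the kinase GCN2 and raises translation of the factor ATF4. ATF4 pairs with C/EBP proteins at composite elements, the amino acid response elements, and drives enzymes and transporters that supply asparagine, serine, glycine and other amino acids. Proliferating leukemia cells are known to lean on these enzymes.

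The promoters of members that hold such an element are shown first, since genes of the amino acid response recur among the members. The search used TGATGNAAN, where N is any base, on both strands, from 250 bases before to 50 bases after each start in the RefSeq promoter table (GRCh38.p14). The table held 128 promoters of 78 of the 117 genes. The element occurred at 5 of these 78 genes (6.41%), against 4.45% of the 27305 genes in the promoter table. Among the other lower listed genes with a promoter there, it occurred at 20 of 398 (5.03%). The share over the members lay near both, so the 5 genes are examples and not a trait of the members. The stricter TGATGCAAN occurred at 3 of the 78 (3.85%), against 1.08% of the 27305 genes and 2.76% of the 398 other lower genes. At 4 of the 5 genes with TGATGNAAN the product works in the amino acid response or in one-carbon metabolism, and the fifth, BCAT1, starts the breakdown of branched-chain amino acids. Among the 10 members of the amino acid response and serine sets that had a promoter in the table, 4 held TGATGNAAN (40%). These sets were drawn up from known targets of ATF4, so that share is not independent of the element. Each sequence below is 300 bases long on the strand of the gene, with the element in capitals, and was found once, by exact match, in GRCh37.
ASNS: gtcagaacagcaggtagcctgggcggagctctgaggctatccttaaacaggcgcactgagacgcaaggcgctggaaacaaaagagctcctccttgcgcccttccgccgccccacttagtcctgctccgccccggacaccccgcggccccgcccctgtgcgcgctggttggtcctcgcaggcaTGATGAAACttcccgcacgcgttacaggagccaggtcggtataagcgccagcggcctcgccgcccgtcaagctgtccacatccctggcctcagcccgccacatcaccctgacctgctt
CHAC1: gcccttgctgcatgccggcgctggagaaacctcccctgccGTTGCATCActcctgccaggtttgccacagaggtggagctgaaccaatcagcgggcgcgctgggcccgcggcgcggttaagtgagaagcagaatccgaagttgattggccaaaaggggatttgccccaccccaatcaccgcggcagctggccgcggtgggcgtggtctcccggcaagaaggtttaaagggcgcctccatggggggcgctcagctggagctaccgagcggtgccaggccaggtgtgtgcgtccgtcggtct
ATF3: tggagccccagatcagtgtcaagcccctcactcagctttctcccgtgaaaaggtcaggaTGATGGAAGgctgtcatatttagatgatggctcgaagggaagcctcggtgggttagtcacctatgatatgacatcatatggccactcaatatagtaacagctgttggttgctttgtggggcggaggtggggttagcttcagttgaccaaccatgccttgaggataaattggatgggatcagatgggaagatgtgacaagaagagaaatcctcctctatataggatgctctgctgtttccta
MTHFD1L: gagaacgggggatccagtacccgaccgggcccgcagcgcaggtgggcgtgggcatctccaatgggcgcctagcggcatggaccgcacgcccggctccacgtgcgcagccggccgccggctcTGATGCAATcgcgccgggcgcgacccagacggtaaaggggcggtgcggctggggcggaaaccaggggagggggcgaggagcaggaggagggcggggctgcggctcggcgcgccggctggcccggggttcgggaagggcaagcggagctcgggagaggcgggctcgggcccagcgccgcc
BCAT1: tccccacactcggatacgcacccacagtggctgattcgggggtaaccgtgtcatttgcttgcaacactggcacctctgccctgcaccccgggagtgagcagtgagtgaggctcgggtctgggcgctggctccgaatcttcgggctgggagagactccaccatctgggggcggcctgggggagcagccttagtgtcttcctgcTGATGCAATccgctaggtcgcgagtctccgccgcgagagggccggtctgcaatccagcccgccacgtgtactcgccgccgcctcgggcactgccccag
The ASNS stretch lies at chr7:97501671-97501970 on the minus strand, and its element begins 68 bases before the start. In CHAC1 (chr15:41245419-41245718, plus strand) the element reads on the opposite strand, 210 to 202 bases before the start. The ATF3 stretch (chr1:212738499-212738798, plus strand) belongs to 1 of 2 starts listed for that gene, and the element begins 191 bases before it. MTHFD1L (chr6:151187372-151187671, plus strand) has 4 listed starts, of which 3 had the element in the window, and it begins 129 bases before the one shown. The BCAT1 stretch (chr12:25101986-25102285, minus strand) carries it 48 bases before 1 of 5 starts. A match is a stretch of letters and was not tested as a binding site. No match was found in the windows of PHGDH, PSAT1, MTHFD2, ATF5, TRIB3 or ADM2, which says only that these letters were absent there.

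The 117 genes were lower in both ATRA libraries than in both control libraries. So were all 630 listed genes with a lower ATRA mean, 38.2% of the 1648. The rule itself fixes only the order of the means. The median log2 fold change of the 117 genes was -2.68, a 6.42-fold decrease. Over the other 513 lower genes of the table it was -1.31, and over all listed genes with reads in both groups it was +1.22. Since nearly all listed genes were called different by the authors, neither value is a median over all expressed genes. The decrease was over 8-fold in 49 members and over 16-fold in 15 (in 25 without ATRA library a). Together the members made up 0.631% and 0.643% of the normalized reads of the table in the ATRA libraries, against 5.67% and 5.77% in the control libraries. In bulk RNA, a smaller share of cells that express a gene and less RNA per cell cannot be told apart. The total reads in the table ranged from 4940243 to 5576516 in the ATRA libraries and from 3288055 to 3799430 in the control libraries. When libraries were scaled by these totals in place of the authors' size factors, every log2 fold change shifted by about -0.44. The totals cover only the listed genes, of which 1018 were higher with ATRA, so they do not measure sequencing depth alone.

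**Figure D1:**
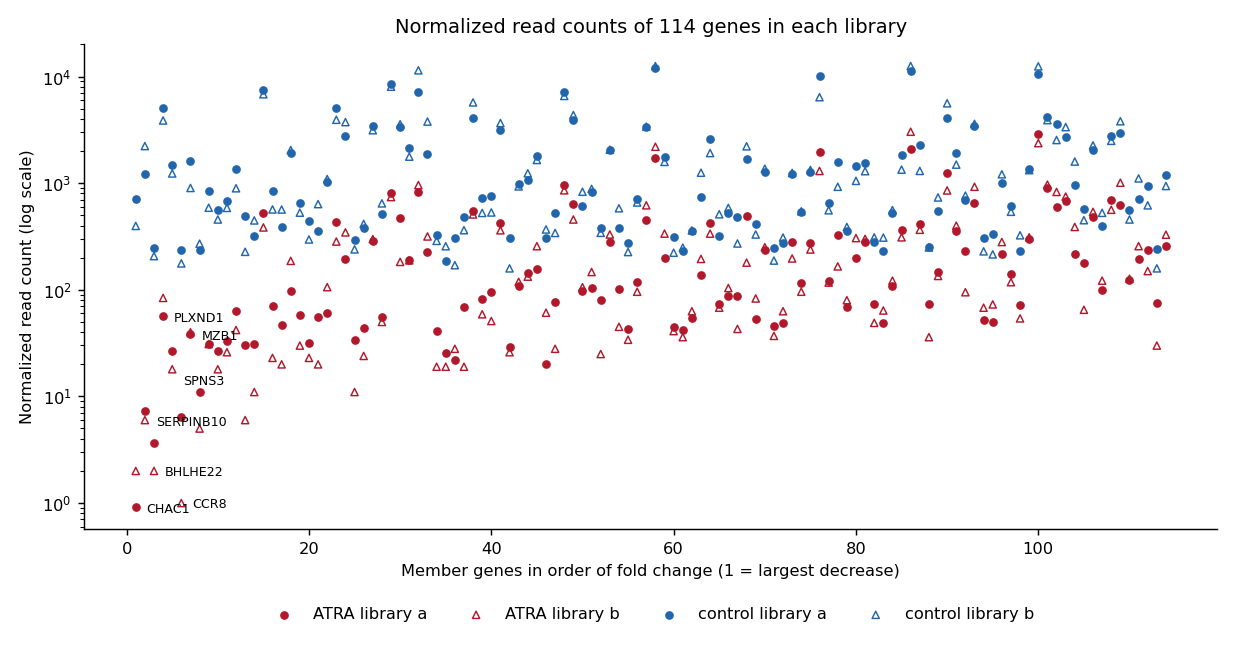
Normalized read counts (log axis) of 114 of the 117 genes in each of the 4 libraries, ordered along the horizontal axis by fold change. Red symbols are ATRA libraries and blue symbols control libraries, circles library a and triangles library b of each group. For each gene both red symbols lie below both blue ones, and CHAC1, BHLHE22 and CCR8 reach down to 3, 6 and 8 reads over both ATRA libraries.

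The table gives 1 mean per group, from which the whole reads of each library were worked out. Values below are reads divided by the size factor of the library, given for ATRA libraries a and b and then control libraries a and b. The letters a and b mark the 2 columns restored from each mean and are not replicate numbers of the labels. For named members, the fold without a library is given at least where it moved by over 1.5 times. Smaller moves, often in the other direction, are mostly not printed, and falls under the 4-fold limit are noted only in part. Positions are on GRCh37.

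Decreases in the amino acid response set ran from 7.56- to 379-fold over its 6 members outside the enzyme sets, their direction being fixed by the rule. CHAC1 (chr15:41245160-41248710), a glutathione-degrading enzyme induced by ATF4, was at 0.910 and 1.99 normalized reads with ATRA, against 705 and 397 in control. These are 1 and 2 reads, and the ratio of control to ATRA was 379 with a 95% counting interval from 129 to 1842, an interval that covers counting error only. Its decrease ranged from 273-fold without control library a to 605-fold without ATRA library b, the latter resting on 1 ATRA read. ATF3, a stress-induced repressor of the ATF and CREB family, measured 43.7 and 23.9 with ATRA, against 383 and 415 in control, lower by 11.8-fold. ATF5, a related factor active in the mitochondrial stress response, had 829.8 and 958 normalized reads with ATRA, against 7096 and 11442 in control, a decrease of 10.4-fold. Its control libraries were the more distant pair, yet the lower one stood well above both ATRA libraries. ASNS (chr7:97480989-97501854), the asparagine synthetase, had 544 and 509 normalized reads in the ATRA libraries, against 4095 and 5718 in the control libraries, 9.32-fold lower. TRIB3, a pseudokinase that restrains ATF4 activity, was at 641 and 456 normalized reads with ATRA, against 3940.1 and 4351 in control, lower by 7.56-fold. ADM2, which encodes the secreted peptide intermedin, measured 25.5 and 18.9 with ATRA, against 185.7 and 256 in control, a decrease of 9.94-fold. Of these, ATF5 and ADM2 share exonic bases with genes on the opposite strand. Whether reads were counted by strand is not given in the sources used here. ASNS shares exonic bases with a long noncoding gene on its own strand, and whether reads were shared was not tested.

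Serine is made from a glycolytic intermediate and passes its carbon to folate, and enzymes of both steps were members. PHGDH (chr1:120191034-120286841), the first enzyme of serine synthesis, had 956 and 857 normalized reads with ATRA, against 7177 and 6577 in control, 7.59-fold lower. PSAT1 (chr9:80912041-80945009), which catalyses the next step, had 814 and 740.0 normalized reads in the ATRA libraries, against 8580.4 and 8027 in the control libraries, lower by 10.7-fold. The library pairs of both enzymes were close in each group. MTHFD2, a mitochondrial folate enzyme of dividing cells, was at 2869.6 and 2374 normalized reads with ATRA, against 10504 and 12461 in control, a decrease of 4.38-fold. MTHFD1L, which releases formate from the mitochondrion, measured 485 and 538 with ATRA, against 2027 and 2260.5 in control, 4.19-fold lower. The third step of serine synthesis, PSPH, is listed but is no member: it had 241 and 221 normalized reads with ATRA, against 810.0 and 647 in control, lower by 3.15-fold.

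Against the wider pathway, 28 of the 40 genes on the amino acid response list were in the table, and 27 of these 28 were lower with ATRA, beside 38.2% of all listed genes. Their median log2 fold change was -1.97. Members were 12 of them, beside 117 of all 1648 listed genes. The rule had fixed the direction of these 12, so the count of 27 and the median are partly its result. The exception was CEBPB, a C/EBP factor of myeloid maturation, which had 7136 and 2934 normalized reads in the ATRA libraries, against 1371 and 824 in the control libraries, 4.59-fold higher. CEBPG, the partner of ATF4 at these elements, was at 1564 and 1807 normalized reads with ATRA, against 3316 and 3704 in control, 2.08-fold lower. The transporter SLC1A4, left out of the members by its name, measured 340.3 and 280.2 with ATRA, against 2407 and 2926 in control, lower by 8.59-fold. Of the 24 genes on the serine and one-carbon list, 9 are in the table, each of them lower, and 4 are members. The direction of these 4 was likewise fixed by the rule. On the list of 20 cytosolic transfer RNA synthetases, 9 genes were in the table, all 9 lower by 1.93- to 3.27-fold, and none was a member. The amino acid response list held genes near 2-fold and genes over 10-fold lower, while the synthetases stayed in the lower part of that range. The lists were written by hand with earlier results of these data known, and the genes not in the table have no value here. The authors called genes at a log2 fold change over 0.9, so genes of these lists that changed less are left out of the counts and ranges.

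**Figure D2:**
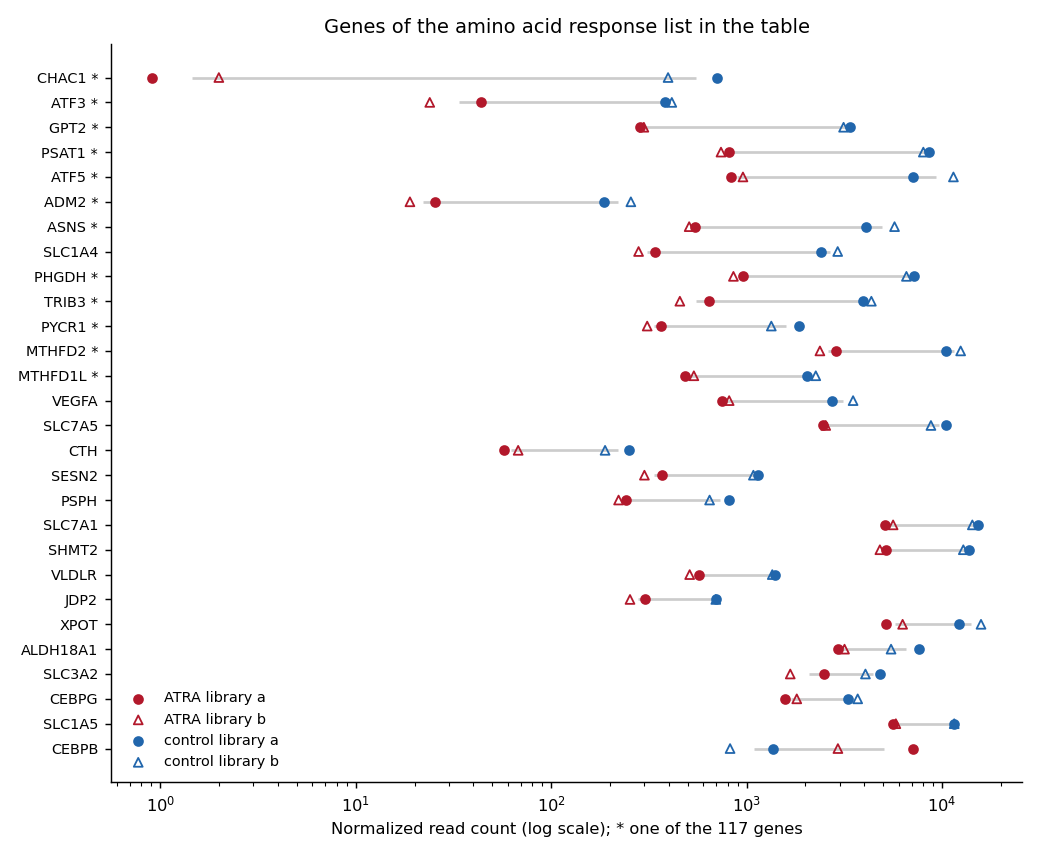
Normalized read counts (log axis) of the 28 listed genes of the amino acid response, ordered from the largest decrease at the top, in ATRA (red) and control (blue) libraries, with circles for library a and triangles for library b. Grey lines join the group means, and an asterisk marks 12 members. In 27 genes both ATRA values lie left of both control values, and CEBPB at the bottom runs the other way.

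Further enzymes of amino acid and intermediary metabolism formed a set of 13 members with a median log2 fold change of -2.57. GPT2, the mitochondrial alanine aminotransferase, had 284 and 298 normalized reads with ATRA, against 3399 and 3136 in control, a decrease of 11.2-fold. PYCR1, which makes proline, had 366 and 310.2 normalized reads in the ATRA libraries, against 1846 and 1339 in the control libraries, 4.71-fold lower. BCAT1, the cytosolic branched-chain aminotransferase, was at 2079.9 and 3035 normalized reads with ATRA, against 11230.1 and 12545 in control, lower by 4.65-fold. The 3 enzymes sit at nitrogen-handling steps, and BCAT1 had the highest ATRA level of the set per length of transcript (275 normalized reads per kb). ALDH5A1, which completes breakdown of the transmitter GABA, measured 652 and 924 with ATRA, against 3446 and 3597 in control, a decrease of 4.47-fold. PFKM, a subunit of the glycolytic enzyme phosphofructokinase, had 425 and 336 normalized reads with ATRA, against 2607 and 1915 in control, 5.94-fold lower. ME1, the cytosolic malic enzyme that yields NADPH, had 238 and 149.6 normalized reads in the ATRA libraries, against 938 and 619 in the control libraries, lower by 4.01-fold. Glycolysis as a list did not follow PFKM: 4 of its 18 genes were in the table, with LDHA 2.40-fold lower as well but HK1 3.90-fold higher and HK3 23.2-fold higher. QPRT, which feeds quinolinate into NAD synthesis, was at 272 and 238 normalized reads with ATRA, against 1272 and 1327 in control, a decrease of 5.09-fold. AK4, a mitochondrial adenylate kinase, measured 277 and 300.2 with ATRA, against 1559.7 and 1295 in control, 4.94-fold lower. STAR, which brings cholesterol into mitochondria, had 44.6 and 40.9 normalized reads with ATRA, against 311 and 222 in control, lower by 6.24-fold.

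Both listed carbonic anhydrase genes, of 15 on that list, were members with nearly equal decreases. CA2, the active cytosolic enzyme, had 20.02 and 60.8 normalized reads in the ATRA libraries, against 305 and 368 in the control libraries, a decrease of 8.32-fold. Its decrease was 5.53-fold without ATRA library a and 16.8-fold without ATRA library b. CA8, a relative without catalytic activity, was at 157 and 256 normalized reads with ATRA, against 1811 and 1649 in control, 8.36-fold lower. CA2 had the largest excess of ATRA library b over library a of all members. MGLL, which hydrolyses the endocannabinoid 2-arachidonoylglycerol, measured 80.97 and 24.9 with ATRA, against 381 and 342 in control, lower by 6.83-fold. Its decrease was 14.5-fold without ATRA library a and 4.46-fold without ATRA library b. UGT2B11, a glucuronosyltransferase, had 55.5 and 19.9 normalized reads with ATRA, against 353 and 636 in control, a decrease of 13.1-fold. Its decrease was 24.8-fold without ATRA library a and 8.91-fold without ATRA library b. It belongs to a family of near-identical genes, so its reads may partly come from relatives.

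Transcription factors and chromatin proteins were, with receptors and signalling proteins, one of the largest sets, at 19 members and a median log2 fold change of -2.65. BHLHE22, a helix-loop-helix repressor known from neurons, had 3.64 and 1.99 normalized reads in the ATRA libraries, against 246 and 207 in the control libraries. These are 6 reads over both ATRA libraries, a ratio of 80.4 with a counting interval from 36.6 to 220.2. HES1, a repressor and target of Notch, was at 46.4 and 19.9 normalized reads with ATRA, against 392 and 565 in control, lower by 14.4-fold. Its decrease was 24-fold without ATRA library a and 10.3-fold without ATRA library b. Notch genes as a list went both ways: among 4 of 16 in the table, JAG1 was 2.49-fold lower, while NOTCH1 was 2.56-fold higher and DTX1 4.16-fold higher. NFIA, a nuclear factor I protein that takes part in the choice between erythroid and granulocytic fates, measured 57.3 and 29.9 with ATRA, against 645 and 529 in control, a decrease of 13.4-fold.

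Related factors appeared in pairs. The elongation factor genes AFF2 and AFF3 were the 2 of the 4 AFF genes that are in the table. AFF3 had 70.1 and 22.9 normalized reads with ATRA, against 844 and 567 in control, 15.2-fold lower. Its decrease was 30.7-fold without ATRA library a and 10.1-fold without ATRA library b. AFF2 had 228 and 316 normalized reads in the ATRA libraries, against 1864 and 3779 in the control libraries, lower by 10.4-fold. Its decrease was 6.85-fold without control library b. AFF2 was 1 of 2 members, with LTBP4, whose control libraries were over 2-fold apart. Of the 5 Ikaros family genes, which are lymphoid zinc finger factors, IKZF3 (Aiolos) and IKZF2 (Helios) are in the table. IKZF3 was at 422 and 361 normalized reads with ATRA, against 3134 and 3662 in control, a decrease of 8.68-fold. IKZF2 measured 1258 and 854 with ATRA, against 4081 and 5610.4 in control, 4.59-fold lower. EBF3, of the early B cell factor family, had 60.05 and 106 normalized reads with ATRA, against 1029 and 1092 in control, lower by 12.8-fold. BATF3, an AP-1 family factor needed by a class of dendritic cells, had 76.4 and 27.9 normalized reads in the ATRA libraries, against 520.2 and 341 in the control libraries, a decrease of 8.25-fold. Its decrease was 15.4-fold without ATRA library a and 5.63-fold without ATRA library b. It neighbours ATF3 on chromosome 1, with a gap of 65.6 kb.

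Homeobox genes gave 3 members. IRX6, of the Iroquois class, was at 69.1 and 18.9 normalized reads with ATRA, against 480.4 and 362 in control, 9.56-fold lower. Its decrease was 22.2-fold without ATRA library a and 6.09-fold without ATRA library b. DLX2 measured 71.9 and 53.9 with ATRA, against 231 and 324 in control, lower by 4.42-fold. SIX4 had 216 and 388 normalized reads with ATRA, against 959 and 1593 in control, a decrease of 4.23-fold. In DLX2 and SIX4 the 2 control libraries were further apart than in most members. TEAD4, the DNA-binding partner of the Hippo pathway, had 193 and 256 normalized reads in the ATRA libraries, against 709.8 and 1107 in the control libraries, 4.05-fold lower. BAHCC1, a chromatin protein, was at 1726 and 2193 normalized reads with ATRA, against 12096 and 12516 in control, lower by 6.28-fold. E2F5, a repressive E2F factor, measured 73.7 and 67.8 with ATRA, against 319.9 and 511 in control, a decrease of 5.87-fold. POLR3G, a subunit of RNA polymerase III in immature cells, had 116.5 and 95.7 normalized reads with ATRA, against 537 and 544 in control, 5.09-fold lower. NPAS1, a neuronal helix-loop-helix factor, had 41.9 and 35.9 normalized reads in the ATRA libraries, against 231 and 248 in the control libraries, lower by 6.17-fold. PHF7, a PHD finger protein, was at 123 and 127 normalized reads with ATRA, against 556 and 456 in control, a decrease of 4.06-fold. ZFPM1 (FOG1), the cofactor of GATA1, measured 74.6 and 29.9 with ATRA, against 242 and 159 in control, 3.83-fold lower. Its decrease was 6.70-fold without ATRA library a and 2.69-fold, under the 4-fold limit, without ATRA library b. ZFPM1 had the narrowest gap of all members, its lower control value being 2.13 times its higher ATRA value.

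Receptors and signalling proteins made up 19 members with a median log2 fold change of -2.44. At the cell surface, PLXND1 (chr3:129274057-129325519), a receptor for semaphorins, had 56.4 and 83.8 normalized reads with ATRA, against 5112 and 3869.5 in control, lower by 64.1-fold. UNC5B, a netrin receptor, had 53.7 and 82.8 normalized reads in the ATRA libraries, against 410.3 and 329.6 in the control libraries, a decrease of 5.42-fold. TYRO3, a receptor tyrosine kinase that senses dying cells, was at 45.5 and 36.9 normalized reads with ATRA, against 247 and 188 in control, 5.28-fold lower. PLXND1 was thus set apart from both by the size of its decrease. INSR, the insulin receptor, measured 681 and 748 with ATRA, against 2719.8 and 3353 in control, lower by 4.25-fold. LRP3, of the LDL receptor family, had 598 and 827 normalized reads with ATRA, against 3558 and 2538 in control, a decrease of 4.28-fold. PAQR5, a membrane progestin receptor, had 94.6 and 50.9 normalized reads in the ATRA libraries, against 749.7 and 531 in the control libraries, 8.80-fold lower. WNT10B, the only Wnt ligand among the members, was at 21.8 and 27.9 normalized reads with ATRA, against 307 and 169.8 in control, lower by 9.59-fold. It lies 23.4 kb from DDN, another member, on chromosome 12.

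Small GTPases and their regulators formed another group of the signalling set. RAC3, a GTPase of the Rac type, measured 256 and 328 with ATRA, against 1202 and 939.7 in control, a decrease of 3.67-fold. RAC3 was the member with the smallest decrease. ARHGAP23, a GTPase-activating protein, had 104 and 147 normalized reads with ATRA, against 830.4 and 884 in control, 6.85-fold lower. GARNL3, with a Rap GTPase-activating domain, had 42.8 and 33.9 normalized reads in the ATRA libraries, against 273 and 226 in the control libraries, lower by 6.51-fold. SPATA13, an exchange factor for small GTPases, was at 197 and 305 normalized reads with ATRA, against 1435 and 1050.3 in control, a decrease of 4.95-fold. CNKSR2, a scaffold of Ras signalling, measured 100.1 and 122 with ATRA, against 396 and 526 in control, 4.16-fold lower. The decreases of these 4 regulators were between 4- and 7-fold.

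Enzymes of signalling closed the set. FKBP5, a co-chaperone of the glucocorticoid receptor, had 455 and 619 normalized reads with ATRA, against 3381 and 3386 in control, lower by 6.30-fold. CDK6, the cyclin-dependent kinase of G1 phase, had 619 and 1009 normalized reads in the ATRA libraries, against 2945 and 3808 in the control libraries, a decrease of 4.15-fold. PLCG1, a phospholipase C, was at 54.6 and 62.8 normalized reads with ATRA, against 356 and 359.8 in control, 6.10-fold lower. The control values of FKBP5 and PLCG1 were nearly equal between libraries. DGKG, a diacylglycerol kinase, measured 197 and 336 with ATRA, against 1751 and 1582 in control, lower by 6.25-fold. PDE4A, a cyclic AMP phosphodiesterase, had 142 and 118 normalized reads with ATRA, against 616 and 539 in control, a decrease of 4.45-fold. DUSP3, a dual-specificity phosphatase, had 237 and 250.3 normalized reads in the ATRA libraries, against 1271 and 1365 in the control libraries, 5.41-fold lower.

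Immune genes were 12 members with the second lowest median of the sets, -3.86 on the log2 scale. SERPINB10 (chr18:61575192-61603345), a serine protease inhibitor of blood cells, was at 7.28 and 5.98 normalized reads with ATRA, against 1211 and 2227 in control, from 8 and 6 reads in the ATRA libraries, lower by 259-fold. SERPINB2, plasminogen activator inhibitor type 2, measured 30.9 and 10.97 with ATRA, against 319 and 447 in control, a decrease of 18.3-fold. Its decrease was 34.9-fold without ATRA library a and 12.4-fold without ATRA library b. The genes SERPINB2 and SERPINB10 are 4.07 kb apart on chromosome 18. Both share exonic bases with the same further coding gene on their strand, and whether reads were shared was not tested. Of 13 clade B serpins, 4 were in the table and did not move together: SERPINB8 was 2.74-fold lower, while SERPINB1, the neutrophil elastase inhibitor, had 12768 and 11377 normalized reads with ATRA, against 865 and 884 in control, 13.8-fold higher. CST7, a protease inhibitor of leukocyte granules, had 527 and 384 normalized reads in the ATRA libraries, against 7518 and 6817 in the control libraries, lower by 15.7-fold. C1QA, a chain of complement C1q, was at 31.8 and 22.9 normalized reads with ATRA, against 438 and 296 in control, a decrease of 13.4-fold. SPON2, a secreted pattern recognition protein, measured 30.9 and 30.9 with ATRA, against 847 and 588 in control, 23.2-fold lower. The ATRA values of SPON2 were almost identical.

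Receptors of immune cells followed. CCR8, a chemokine receptor, had 6.37 and 0.997 normalized reads with ATRA, against 234 and 177 in control. These are 8 reads over both ATRA libraries, a ratio of 55.8 with a counting interval from 28.04 to 130.1. Its decrease was 206-fold without ATRA library a and 32.3-fold without ATRA library b. TLR9, the sensor of unmethylated CpG DNA, had 81.9 and 58.8 normalized reads in the ATRA libraries, against 721 and 525 in the control libraries, a decrease of 8.85-fold. TNFRSF21, death receptor 6, was at 87.3 and 42.9 normalized reads with ATRA, against 484 and 272 in control, 5.80-fold lower. Its decrease was 8.81-fold without ATRA library a and 4.33-fold without ATRA library b. CNR2, the cannabinoid receptor of leukocytes, measured 230.2 and 94.7 with ATRA, against 700.1 and 763 in control, lower by 4.50-fold. Its decrease was 7.72-fold without ATRA library a and 3.18-fold, under the 4-fold limit, without ATRA library b. LAT, the adaptor of T cell receptor signalling, had 177 and 64.8 normalized reads with ATRA, against 567 and 449 in control, a decrease of 4.19-fold. Its decrease was 7.84-fold without ATRA library a and 2.86-fold, under the 4-fold limit, without ATRA library b. In each of these genes library b was the lower ATRA library. FUT7, which completes selectin ligands, had 413 and 365 normalized reads in the ATRA libraries, against 2281 and 1302 in the control libraries, 4.60-fold lower. MZB1, an endoplasmic reticulum protein of B and plasma cells, was at 38.2 and 39.9 normalized reads with ATRA, against 1602 and 901 in control, lower by 32.04-fold.

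Markers of blood cell types moved in both directions. Of 8 eosinophil, basophil and mast cell markers, 4 were in the table and all 4 were lower, with summed normalized reads of 38229 and 10773 in the ATRA libraries, against 215034 and 93814 in the control libraries, nearly all of it PRG2. These 4 (CPA3, IL5RA, PRG2 and SIGLEC8) are among the names that the rule leaves out of the members. Of 5 mature neutrophil markers 4 were in the table, all higher, with sums of 43919 and 42757 in the ATRA libraries, against 2562 and 2770 in the control libraries. Both listed monocyte markers, CD68 and CSF1R of 4, were higher (sums of 1107 and 947 with ATRA, against 57.4 and 25.7 in control). Of 5 T and NK cell markers, CD3E was higher and NKG7 lower, with sums of 235 and 213 in the ATRA libraries, against 229 and 287 in the control libraries. No marker of B cells (of 4), erythroid cells (of 4) or megakaryocytes (of 3) was in the table, nor was MPO, ELANE or another of the 5 markers of immature granulocytes, so the label of the line could not be checked on them. The part of these cell types in the members' decreases was not tested.

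Matrix and secreted proteins were a small set of 5 with the lowest median, -4.33. EMILIN2, an elastic fibre glycoprotein, measured 26.4 and 17.95 with ATRA, against 555 and 456 in control, a decrease of 22.8-fold. OAF, a secreted protein, had 62.8 and 41.9 normalized reads with ATRA, against 1348 and 895 in control, 21.4-fold lower. LTBP4, which binds latent TGF-beta, had 30.02 and 5.98 normalized reads in the ATRA libraries, against 495 and 227 in the control libraries, lower by 20.04-fold. Its decrease was 60.3-fold without ATRA library a, 12.02-fold without ATRA library b and 12.6-fold without control library a. LTBP4 was the member with the most distant control libraries, and only CCR8 had more distant ATRA libraries. LUM, the collagen-binding lumican, was at 101 and 44.9 normalized reads with ATRA, against 377 and 581 in control, a decrease of 6.57-fold. Its decrease was 10.7-fold without ATRA library a and 4.74-fold without ATRA library b. CRIM1, a transmembrane binder of bone morphogenetic proteins, measured 121 and 116.7 with ATRA, against 651 and 556 in control, 5.08-fold lower. Without ATRA library a the median of the set was -4.74, without ATRA library b -3.59, -3.66 with control library a left out and -4.65 with control library b left out.

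Cytoskeletal genes were 11 members with a narrow range of 4.83- to 12.1-fold. VIM, the intermediate filament protein vimentin, had 467 and 183 normalized reads with ATRA, against 3369 and 3568 in control, lower by 10.7-fold. Its decrease was 19.01-fold without ATRA library a and 7.43-fold without ATRA library b. AHNAK, a very large scaffold protein, had 194 and 345 normalized reads in the ATRA libraries, against 2781 and 3737 in the control libraries, a decrease of 12.1-fold. Their ATRA libraries differed in opposite directions, b below a for VIM and b above a for AHNAK. JPH1, which couples membranes in muscle, was at 33.7 and 10.97 normalized reads with ATRA, against 295 and 239 in control, 11.96-fold lower. Its decrease was 24.3-fold without ATRA library a and 7.93-fold without ATRA library b. DDN, dendrin of neurons and podocytes, measured 188 and 188 with ATRA, against 2136 and 1772 in control, lower by 10.4-fold. TNKS1BP1, a tankyrase partner, had 107 and 119 normalized reads with ATRA, against 985 and 932 in control, a decrease of 8.48-fold. MTSS1L (now MTSS2), of a membrane-bending family, had 277 and 330.1 normalized reads in the ATRA libraries, against 2032 and 2059 in the control libraries, 6.73-fold lower. The last 3 pairs were close in both groups. STARD9, a mitotic kinesin, was at 282 and 196 normalized reads with ATRA, against 1222 and 1247 in control, lower by 5.16-fold. BIN1, an amphiphysin, measured 69.1 and 79.8 with ATRA, against 358 and 388 in control, a decrease of 5.01-fold. SNTB2, a syntrophin, had 72.8 and 48.9 normalized reads with ATRA, against 278 and 309.5 in control, 4.83-fold lower.

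Channels and membrane transport proteins outside the solute carrier names were 6 members. SPNS3 (chr17:4337235-4391503), of the spinster transporter family, had 26.4 and 17.95 normalized reads in the ATRA libraries, against 1464 and 1232 in the control libraries, lower by 60.8-fold. SERINC5, which blocks infectivity of retroviruses, was at 96.4 and 186.5 normalized reads with ATRA, against 1904 and 2043 in control, a decrease of 13.9-fold. KCNH2, the hERG potassium channel, measured 1947 and 1300.5 with ATRA, against 10112 and 6400.4 in control, 5.08-fold lower. SPNS3 had the largest decrease of this set and KCNH2 the smallest. KCNN2, a calcium-activated potassium channel, had 49.1 and 62.8 normalized reads with ATRA, against 273 and 308 in control, lower by 5.20-fold. MCTP2, a calcium-binding membrane protein, had 55.5 and 49.9 normalized reads in the ATRA libraries, against 511 and 646 in the control libraries, a decrease of 10.97-fold. SYNGR1, a synaptic vesicle protein, was at 144 and 133 normalized reads with ATRA, against 1078 and 1237 in control, 8.38-fold lower.

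Glycosylation enzymes were 4 members, all between 4.34- and 4.72-fold lower. MGAT3, which adds the bisecting sugar of N-glycans, measured 301 and 310.2 with ATRA, against 1365 and 1324 in control, lower by 4.40-fold. ST6GALNAC4, a sialyltransferase, had 109 and 122 normalized reads with ATRA, against 530.0 and 559 in control, a decrease of 4.72-fold. HS6ST1, a heparan sulfate sulfotransferase, had 896 and 968 normalized reads in the ATRA libraries, against 4186 and 3899.7 in the control libraries, 4.34-fold lower. B4GALT2, a galactosyltransferase, was at 355 and 399 normalized reads with ATRA, against 1923 and 1492 in control, lower by 4.53-fold. This set had the smallest median distance between its ATRA libraries.

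**Figure D3:**
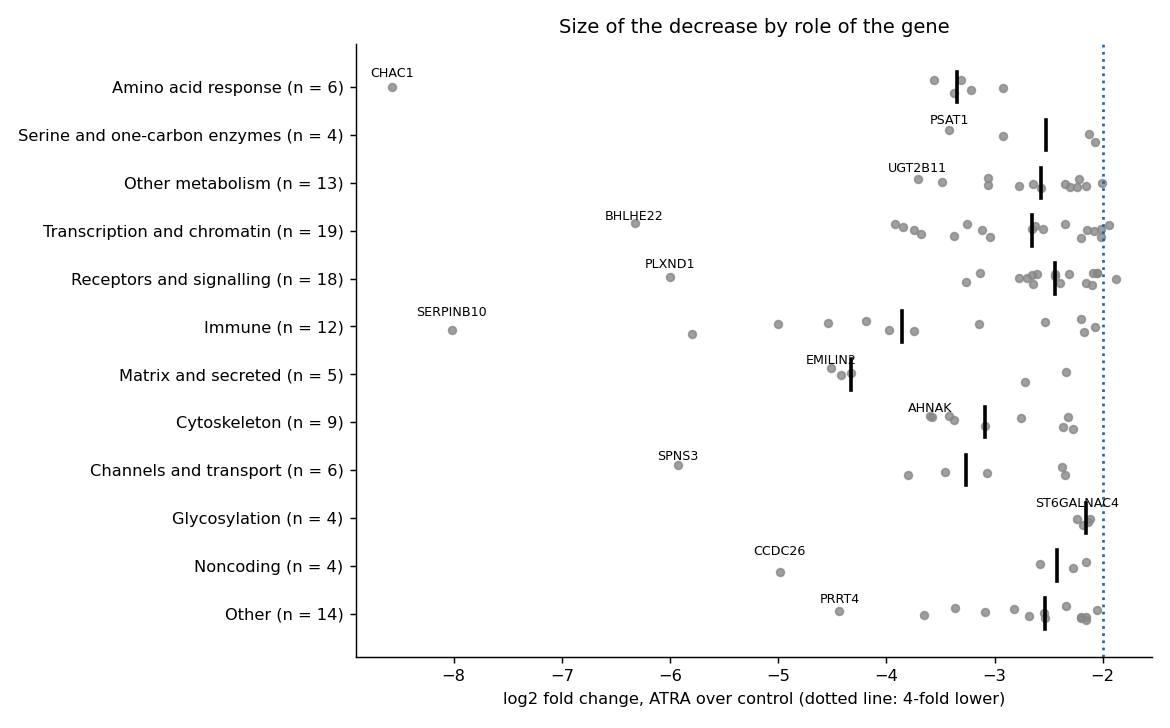
Log2 fold change of ATRA over control for 114 of the 117 genes, by role, with a black bar at the median of the genes plotted in each set, the name of the most strongly lowered one, and a dotted line at 4-fold lower. Immune genes (median -3.86) and matrix genes (median -4.33) reach further left than glycosylation enzymes, which lie between -2.24 and -2.12. ZFPM1 and RAC3 lie right of the line because the plot uses restored means.

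Noncoding transcripts that the names did not exclude were 4. CCDC26, a long noncoding gene on chromosome 8, measured 10.9 and 4.99 with ATRA, against 234 and 270.4 in control, a decrease of 31.7-fold. Its decrease was 50.6-fold without ATRA library a and 23.1-fold without ATRA library b. MIR4697HG had 137 and 194 normalized reads with ATRA, against 736 and 1253 in control, 5.99-fold lower. It is listed in RefSeq as a synonym of IGSF9B, itself a member, and got no position here. Whether these rows share reads is not known, so the MIR4697HG values may not be separate from those of IGSF9B. C10orf91 (now LINC02870) had 48.2 and 63.8 normalized reads in the ATRA libraries, against 232 and 308 in the control libraries, lower by 4.83-fold. C17orf51 (now LINC02693) was at 50.04 and 72.8 normalized reads with ATRA, against 334 and 215 in control, a decrease of 4.46-fold.

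The remaining 14 members had no common role and a median log2 fold change of -2.54. FAM46C (TENT5C), which extends poly(A) tails and is mutated in myeloma, measured 428 and 283 with ATRA, against 5021 and 3929.8 in control, 12.6-fold lower. PRRT4, a proline-rich membrane protein, had 32.8 and 25.9 normalized reads with ATRA, against 684 and 586 in control, lower by 21.6-fold. C1orf186 (RHEX), a regulator of erythroid expansion, had 491 and 179.5 normalized reads in the ATRA libraries, against 1674 and 2216 in the control libraries, a decrease of 5.80-fold. Its decrease was 10.8-fold without ATRA library a and 3.96-fold, under the 4-fold limit, without ATRA library b. PRRT4 had the largest decrease of these 14. PLD6, a mitochondrial phospholipase, was at 328 and 166 normalized reads with ATRA, against 1579 and 924 in control, 5.08-fold lower. TSPAN33, a tetraspanin of B cells, measured 51.9 and 67.8 with ATRA, against 305 and 229 in control, lower by 4.47-fold. TEX15, a germ cell protein, had 97.4 and 106 normalized reads with ATRA, against 609 and 830.2 in control, a decrease of 7.09-fold. IGSF9B, a synaptic adhesion protein, had 117.4 and 95.7 normalized reads in the ATRA libraries, against 711 and 658 in the control libraries, 6.42-fold lower. FAM212A (INKA1), an inhibitor of the kinase PAK4, was at 88.3 and 104 normalized reads with ATRA, against 530.0 and 586 in control, lower by 5.81-fold. Both ATRA libraries of each of these 5 genes lay below both control libraries. LONRF2, a RING finger protein, measured 40.9 and 18.9 with ATRA, against 329 and 287 in control, a decrease of 10.3-fold. Its decrease was 16.3-fold without ATRA library a and 7.52-fold without ATRA library b. It lies 79.4 kb from AFF3 on chromosome 2. CDR2L had 29.1 and 25.9 normalized reads with ATRA, against 308 and 159 in control, 8.48-fold lower. ZFYVE28, a negative regulator of the EGF receptor, had 72.8 and 35.9 normalized reads in the ATRA libraries, against 251 and 249 in the control libraries, lower by 4.60-fold. Its decrease was 6.96-fold without ATRA library a and 3.44-fold, under the 4-fold limit, without ATRA library b. DEPDC7 was at 146 and 135 normalized reads with ATRA, against 552 and 734 in control, a decrease of 4.59-fold. ANKRD13B measured 218 and 280.2 with ATRA, against 1013 and 1210.1 in control, 4.46-fold lower. FAM102B had 701 and 562 normalized reads with ATRA, against 2749 and 2495 in control, lower by 4.15-fold. The last 3 were between 4- and 5-fold lower.

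Levels can be compared between genes only after division by transcript length. For the 116 members with a GENCODE model, the mean control level had a median of 236 reads per kb and was highest in CST7 (8044), while the ATRA level ranged from 0.863 in BHLHE22 to 595 in MTHFD2, with a median of 26.9. After CST7, the highest control levels per kb were those of ATF5 (4618), PSAT1 (3764), PHGDH (3685), MTHFD2 (2608) and ASNS (2057). With ATRA, MTHFD2 stood above CST7 (511 per kb), PHGDH (486) and ATF5 (445). The amino acid response and serine genes thus held 5 of the 6 highest control levels, and in PSAT1 and PHGDH the control levels differed by less than the spread of the libraries.

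**Figure D4:**
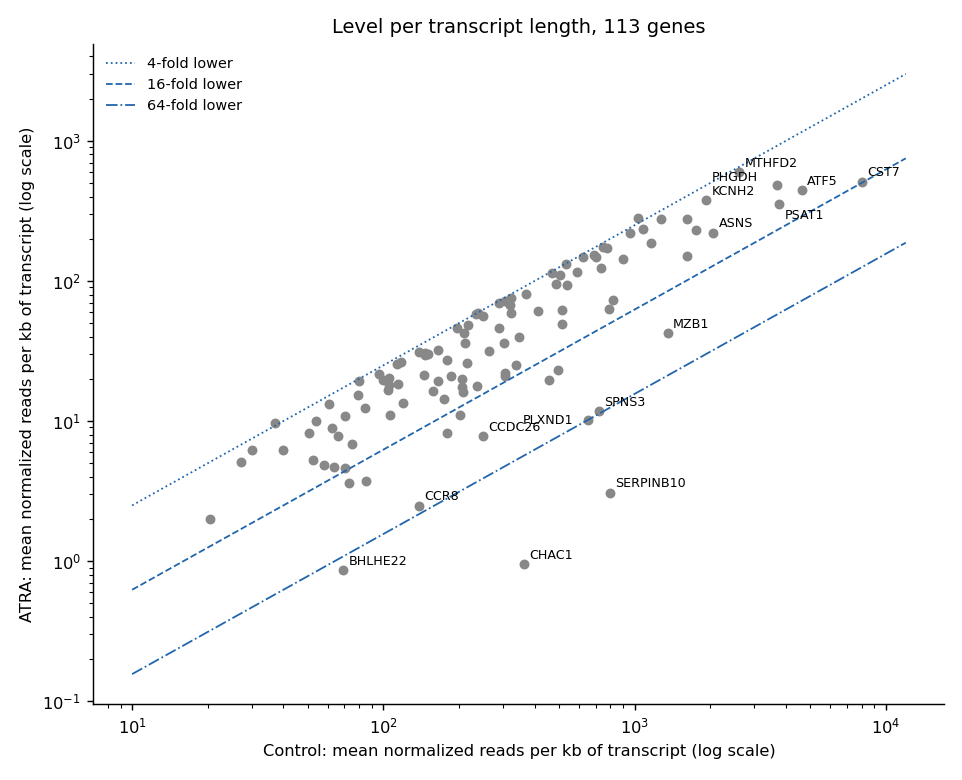
Mean normalized reads per kb of transcript with ATRA (vertical, log axis) against control (horizontal, log axis) for 113 members, with lines at 4-, 16- and 64-fold lower. Most genes lie in the band between 4- and 16-fold at every control level, and SERPINB10, CHAC1, BHLHE22 and PLXND1 lie on or below the 64-fold line.

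The 2 ATRA libraries lay further apart in the members than in the other lower genes of the table, a description without a test. The median distance between ATRA libraries was 0.45 on the log2 scale in the members and 0.24 in the other lower genes, and between control libraries it was 0.30 and 0.24. Distances over 2-fold occurred in 23 of 117 members for ATRA, beside 21 of 513 other lower genes, and in 2 members for control. Depth moved with this: 58 members had under 100 reads in an ATRA library, and 21 of the 23 distant pairs were among them. In the 59 members with at least 100 reads in both ATRA libraries the median distance was 0.32, beside 0.21 in 449 other lower genes with such counts. Library b was the lower ATRA library in 68 of 117 members, beside 197 of 513 other lower genes and 634 of 1018 higher genes. Within the members this held for 44 of the 58 with under 100 reads in an ATRA library and 24 of the 59 others. By role the counts included 11 of 12 immune, 5 of 5 matrix, 5 of 19 receptor and signalling and 0 of 4 glycosylation genes. The part of read depth in the counts by role was not tested.

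**Figure D5:**
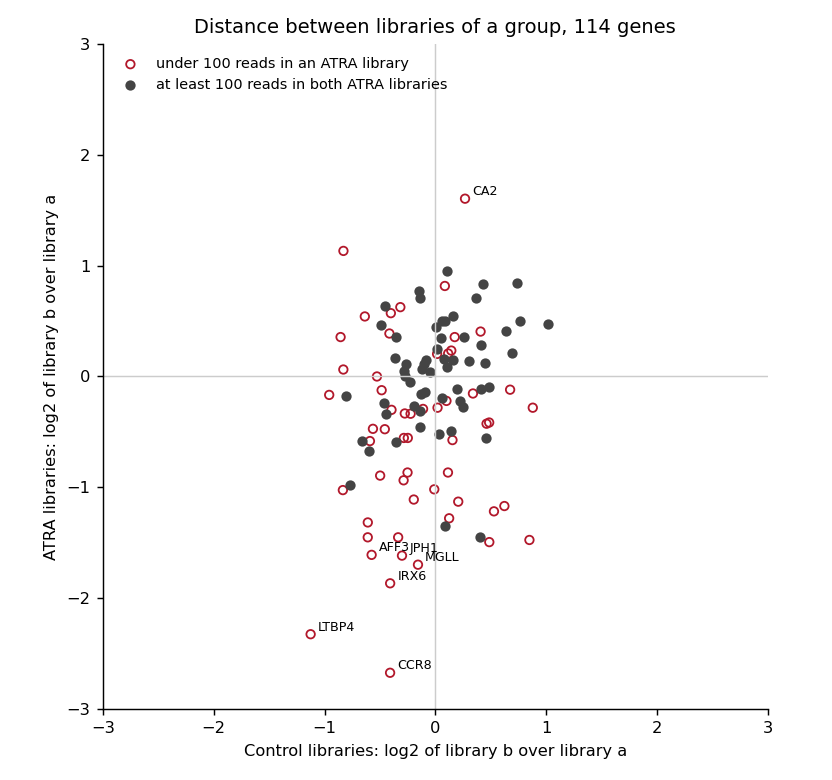
Log2 ratio of library b to library a in the ATRA group (vertical) against that in the control group (horizontal) for 114 of the 117 genes. Open red circles have under 100 reads in an ATRA library, and filled circles at least 100 in both. The spread is wider along the vertical axis, with CCR8 and LTBP4 lowest and CA2 highest.

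Among the 116 members with a position, 113 were protein-coding and 3 were long noncoding genes, on 22 chromosomes. Within 1000 kb of each other lay 17 pairs, and 6 pairs lay within 100 kb, those of SERPINB2 and SERPINB10, WNT10B and DDN, ATF3 and BATF3, SYNGR1 and MGAT3, AFF3 and LONRF2, and PYCR1 and RAC3. These members share no single region. Exonic bases were shared with another coding gene in 26 members, and with any other coding or long noncoding gene in 47. No share over all genes is given beside these counts. For QPRT, TLR9, C1QA, FUT7 and PYCR1, among others, the other coding gene lies on the same strand. Whether reads were shared was not tested.

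The limits cut through a continuum. Just inside the ratio limit of 0.25, by the authors' means, stood ME1 (ratio 0.249), RAC3 (0.249) and ZFPM1 (0.247), and just outside stood COLGALT2 (0.251), VEGFA (0.252) and ASIC1 (0.252). At the control limit, ZFPM1 (211), CCR8 (215) and TYRO3 (217) stood just inside, and PGBD5 (199), IRX5 (197) and IL1RL1 (197) just outside. In the deposited means every digit 0 is written as 1. With zeros restored, RAC3 and ZFPM1 moved to ratios of 0.273 and 0.261, above the limit, and KCNC4 (0.242) came below it, so that 116 genes would be members.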

How the data were processed

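RNA of 2 ATRA and 2 control samples was measured. Per the labels and the study's methods, the authors trimmed reads with cutadapt, removed ribosomal reads with Bowtie, counted genes with RSEM 1.2.7 on hg19, and computed group means and tests with DESeq2 1.4.5. The deposited table gives a normalized signal per group, the mean of reads divided by size factors. Its fold changes and raw p-values, the authors' own comparisons, were not used, and the deposited adjusted p-value only to count 1645 of 1648 genes under 0.01.

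In the deposited means no digit 0 occurs among 73360 digits, each being written as 1. Each group mean is the sum of 2 whole read counts times 2 fixed steps, so counts per library were recovered, and 1648 of 1648 genes had exactly 1 solution (Python 3.11.15, numpy 2.4.6, pandas 2.3.3, scipy 1.17.1). Recovered libraries cannot be tied to the labels' replicate numbers. Reads per member and library ranged from 1 to 12440. Counting intervals (95%, exact binomial) cover counting error only. No group test was run, because the means chose the members.

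Gene models came from GENCODE 44 on GRCh37 (116 of 117 members, 7 by an older symbol) and promoters from RefSeq. The named genes are 114 of the 117 members (3, counted in the totals, are not reported here), by hand-written role lists, and the genes beside the limits. Members and lists were chosen with earlier results of these data known. Alternatives tried were printed means, scaling by reads in the listed genes, a pseudocount of 1, other limits, other motif settings and leaving out each library.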

Additional observations from a re-analysis of the deposited data

How the results depend on the processing

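The number of genes within the limits was 196 with the ratio limit loosened from 4- to 3-fold, 48 with it tightened to 8-fold, and 112 to 122 when the limits were applied without each library in turn. Of the 117 members, 99 to 107 stayed within them. Different members fell out with each library. For example, TEAD4 was 3.16-fold lower without control library b, and ME1 3.19-fold lower without control library a. The median log2 fold change of the members was -3.13 when libraries were scaled by reads in the listed genes, and -2.80 to -2.69 without each library. Reads in the listed genes do not measure sequencing depth alone, because most of these genes were higher with ATRA. Over 16-fold lower were 16 to 25 members without each library, 25 without ATRA library a. The fold of 24 members moved by over 1.5 times without at least 1 library. The stricter element TGATGCAAN was found at 3 members (3.85% of 78, against 1.08% of all genes) in place of 5 (6.41%, against 4.45%). Over the 398 other lower genes with a promoter the share was 2.76% in place of 5.03%. Over the alternatives run on single members, none turned a direction. This was fixed in advance for the left-out libraries: in all 117 members the lowest control value was over 2 times the highest ATRA value. No paired analysis was possible because no group test was run and the recovered libraries carry no replicate number. With 3 to 8 reads in CHAC1, BHLHE22 and CCR8, depth limits the size of their decreases.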
